A study of Mus musculus with 4 samples.

Results

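The genes described here encode the folding machinery of the endoplasmic reticulum (ER) and the sensors, transcription factors and targets of the unfolded protein response. They were picked by symbol, 34 genes with 68 probes on an array that names 37066 genes, of which 19326 were tested. All 34 were well above background on all 4 arrays, so none was lost to the filter on dim probes. RNA of whole colon came from C57BL/6 mice on day 5 of dextran sulphate sodium (DSS), a chemical given to mice to damage the gut lining and cause colitis. The 2 control samples carried Junb fl/fl, that is, Junb alleles flanked by loxP sites with no Cre, and the 2 mutant samples carried Junb fl/fl with Cd4-Cre. Cd4-Cre is expressed from T cell development in the thymus onwards and removes floxed DNA from CD4 and CD8 T cells, so most other colon cells keep intact Junb, which encodes an AP-1 transcription factor. All samples came from mice on DSS, and colon without DSS was not analysed here. The labels give neither age nor sex, and do not say whether each RNA came from 1 mouse or a pool.

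Proteins that are secreted or placed in membranes are threaded into the ER through the Sec61 translocon, where chaperones fold them and enzymes form their disulfide bonds and trim their glycans. When unfolded protein builds up, the sensors IRE1, PERK and ATF6 are switched on, and they raise chaperones and degradation factors through the transcription factors XBP1s, ATF4 and ATF6. In the colon, goblet cells, which make mucin, and plasma cells, which make antibody, carry much of this load, and IRE1-beta, encoded by Ern2, is found mainly in mucus-producing epithelium. The sensors act through phosphorylation, cleavage and the splicing of Xbp1 mRNA, which the signal of a gene's probe does not measure.

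No single gene of these arrays passed limma's test adjusted over all genes in the fit without a block, and no ER gene did with the replicate number as a block, so what follows describes sizes and directions. In the mutant colon the luminal chaperone and cofactor genes Hyou1, Manf, Sdf2l1 and Creld2, the disulfide isomerase gene Pdia4 and the translocon genes Sec61b and Sec61a1 were 1.29 to 1.58-fold higher, at an unadjusted p under 0.05. Ern2 was 1.23-fold lower at the same threshold. The stress-linked transcription factor genes Atf4 and Ddit3 differed by 0.01 and -0.37 on the log2 scale. Of the 6 degradation genes 5 were higher, by 0.01 to 0.19, where 53.3% of all genes were higher. Herpud1 differed by -0.03, and none of the 6 reached that threshold.

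Several chaperone genes share a sequence in their promoters, shown here because most of the higher members are chaperones and folding enzymes. The ER stress response element (ERSE), bound by NF-Y and ATF6, reads CCAAT, any 9 bases, CCACG, and both strands were searched in the 250 bases before and 50 after each start site in the RefSeq promoter table (GRCm38.p6). The table held 28 of the 34 members, and 8 of the 28 (28.6%) had a match, compared with 37 of 27025 genes in the whole table (0.137%). Atf6, Derl1, Ern2, Hyou1, Manf and Sec61a1 had no window and were not searched, so nothing is said of an ERSE in them. The members were picked as genes of this response, so these shares are no test, and they use no value of the arrays. Each match is printed below in capitals, 5′ to 3′ on the gene's strand, with up to 20 bases on each side, and CGTGG with ATTGG is the same element read on the other strand.
Calr, chr8:84847055-84847113 (- strand): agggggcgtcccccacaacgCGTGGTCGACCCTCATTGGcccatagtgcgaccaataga
Canx, chr11:50325780-50325838 (- strand): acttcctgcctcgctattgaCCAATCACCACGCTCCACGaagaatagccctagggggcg
Creld2, chr15:88819500-88819558 (+ strand): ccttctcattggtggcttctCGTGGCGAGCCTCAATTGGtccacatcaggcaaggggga
Dnajc3, chr14:118937807-118937865 (+ strand): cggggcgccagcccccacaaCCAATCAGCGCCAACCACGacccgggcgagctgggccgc
Hsp90b1, chr10:86705513-86705571 (- strand): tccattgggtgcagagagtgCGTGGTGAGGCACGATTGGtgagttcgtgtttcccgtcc
Hsp90b1, chr10:86705618-86705676 (- strand): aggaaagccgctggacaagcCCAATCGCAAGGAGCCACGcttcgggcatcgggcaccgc
Hspa5, chr2:34772005-34772063 (+ strand): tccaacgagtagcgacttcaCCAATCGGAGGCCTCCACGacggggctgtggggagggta
Pdia6, chr12:17266471-17266529 (+ strand): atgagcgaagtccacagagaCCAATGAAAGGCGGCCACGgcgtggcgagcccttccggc
Syvn1, chr19:6046512-6046570 (+ strand): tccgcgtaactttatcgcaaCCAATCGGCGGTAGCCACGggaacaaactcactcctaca
Hsp90b1 held a pair of matches on opposite strands and the other 7 genes held 1 each. In the gene's direction the match began 65 bases before the start site in Hspa5, and between 44 bases (Syvn1) and 212 bases (Hsp90b1) before it in the others. The shorter ERSE-II, which reads ATTGG, any 1 base, CCACG, was found in Herpud1 and Dnajb11 and in 0.0444% of all genes. The C/EBP-ATF element bound by ATF4 and its partners, searched as TGATGNAA, was found in Asns, Chac1, Trib3 and Herpud1 and in 4.51% of all genes. The letters TGACGTGG of the XBP1-bound UPRE were found in none of the 28 and in 0.714% of all genes.

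The 8 genes with an ERSE match were all higher in the mutants, by 0.03 (Syvn1) to 0.48 (Creld2) on the log2 scale with a median of 0.25, although Pdia6 and Syvn1 turned below 0 after quantile normalization, and Syvn1 also after cyclic loess. Among them 1 gene, Creld2, had an unadjusted p under 0.05. The 20 members with a promoter window and no ERSE match ranged from -0.37 (Ddit3) to 0.49 (Sdf2l1) with a median of 0.12. Of these 20, 13 were higher, and 3 were higher at an unadjusted p under 0.05. Over all genes 53.3% were higher, and 5.31% were higher at that threshold. Members without a window, Hyou1, Manf, Sec61a1 and Ern2 among them, are in neither group. Outside the members, 9 of 29 genes with an ERSE match were tested, of which 5 were higher, with a median of 0.04 and none at an unadjusted p under 0.05. Derl3, a degradation factor of secretory cells, was the most changed of these at 0.63 ± 0.28 (limma unadjusted p = 0.0735). A match in these letters is a description and not a measured binding site.

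Each value below is a log2 signal relative to the 75th percentile of its array, and each difference is mutant minus control with its moderated standard error (limma, n = 2 and 2 arrays). Probe positions are those of the array's mm9 annotation, and exon or UTR was not assigned. The prior degrees of freedom of the fit were 3.12. The 4 arrays lay on 1 slide and were scanned together, with a Pearson correlation over genes of 0.976 to 0.984 for each pair of arrays. Junb itself gave 4.23 and 4.39 on the control and 4.44 and 4.47 on the mutant arrays, which does not check the deletion, since most colon cells keep the gene. Xist, transcribed from the inactive X chromosome, gave -0.55 and -6.13 on the control and -0.77 and -6.43 on the mutant arrays, and the Y-linked Eif2s3y gave -6.08 and 0.20 on the control and -6.20 and -0.11 on the mutant arrays. By these genes the replicate 1 samples were female and the replicate 2 samples male, and differences within each replicate number, where sex is shared, are given beside the pooled ones.

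Of 19326 genes tested, none (0%) passed limma's test at an adjusted p of 0.05, where the lowest value was 0.373. An unadjusted p under 0.05 was reached by 1796 genes (9.29%), 1026 higher (5.31% of those tested) and 770 lower (3.98%). That split was 837 and 872 after quantile normalization, 787 and 933 after cyclic loess and 1006 and 411 after median centring. Of the 34 members, 7 were higher (20.6%) and 1 was lower (2.94%) at this threshold, and the lowest adjusted p among them was 0.418. In both mutants 20 members lay above both controls (58.8%), where 25.7% of all genes did so, and 4 lay below (11.8%, against 17.6% of all genes). The members' median difference was 0.19, compared with 0.02 over all genes, and 26 of 34 were higher, compared with 53.3% of all genes. A difference of at least 0.5 was seen in 1 member, Hyou1, and in 11.8% of all genes.

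These counts leaned on single arrays and on the scaling. Without Junb fl/fl Cd4-Cre replicate 1 no member had an unadjusted p under 0.05 (857 of all genes did), without control replicate 1 there were 2 and without Junb fl/fl Cd4-Cre replicate 2 there were 4. Quantile normalization left 5 higher and 2 lower members and a median of 0.10, and cyclic loess, which takes out differences that depend on brightness and was added after the values were seen, left 6 higher and 1 lower and a median of 0.09. The members' median was 0.27 in replicate 1 and 0.08 in replicate 2, so it was larger between the female than between the male samples. This difference was not tested, and sex cannot be told apart from anything else that differs between the replicate numbers. In all, 21 members were higher and 7 lower within both replicate numbers (36.3% and 29.1% of all genes), and among the 21, 18 had the larger difference in replicate 1. With the replicate number, and so the sex, as a block in limma, no member passed an adjusted p of 0.05 (lowest 0.141), while 35 genes in all were higher (0.181%) and 11 lower (0.0569%) at that threshold.

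**Figure D1:**
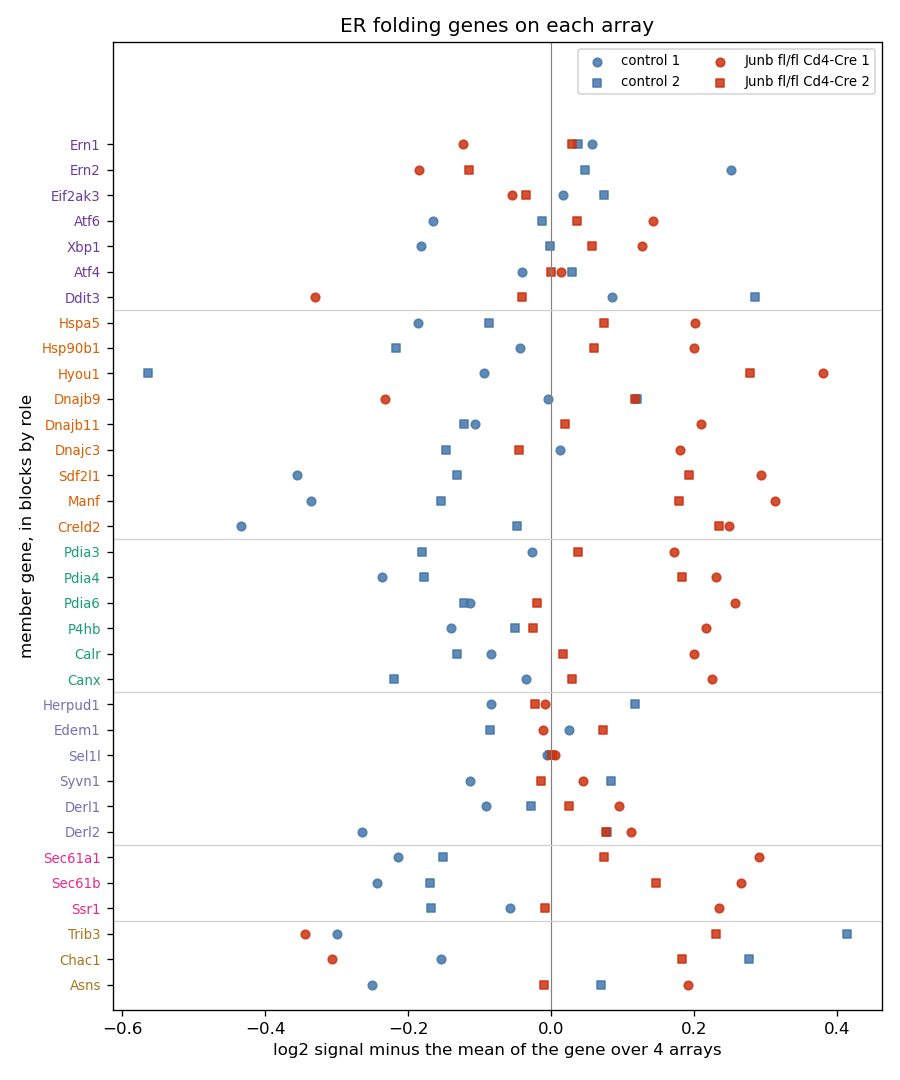
Log2 signal of each of the 34 members on the 4 arrays, minus the mean of the gene over the arrays (x axis), with genes in blocks by role (y axis). Blue points are controls, red points mutants, circles replicate 1 and squares replicate 2; both red points lie right of both blue points for 20 genes, and Junb fl/fl Cd4-Cre replicate 1 is often the rightmost. Of these 20, Xbp1, Pdia6 and Sel1l have a difference below 0 after quantile normalization.

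BiP, encoded by Hspa5, is the main Hsp70 chaperone of the ER lumen and holds the sensors inactive until unfolded protein draws it away. Hspa5 gave 5.28 and 5.38 on the control and 5.67 and 5.54 on the mutant arrays, so the groups did not overlap and the mutants were 1.21-fold higher (difference 0.27 ± 0.11, limma unadjusted p = 0.0513, adjusted p = 0.538). All 3 of its passing probes were higher, by 0.24 to 0.27, and the difference was 0.03 after quantile normalization. Grp94, the ER member of the Hsp90 family, is encoded by Hsp90b1, which gave 5.20 and 5.02 on the control and 5.44 and 5.30 on the mutant arrays. Its difference was 0.26 ± 0.12 and did not pass the unadjusted threshold, and it was 0.04 after quantile normalization.

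Hyou1 encodes Grp170, a large relative of BiP that exchanges its nucleotide. It had the largest difference of the members, with -1.87 and -2.34 on the control and -1.39 and -1.49 on the mutant arrays (probe at chr9:44199084-44199143). Both mutants lay above both controls, control replicate 2 was the lowest, and the mutants were 1.58-fold higher (difference 0.66 ± 0.23, limma unadjusted p = 0.033, adjusted p = 0.499). Its 3 passing probes gave 0.53 to 0.67. Its signals lay below the 75th percentile of each array, and with normexp background correction the difference was 0.38.

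The other 3 that led this group are small ER proteins that are strongly induced under ER stress. Manf, a secreted factor that binds BiP and protects stressed cells, gave 2.55 and 2.74 on the control and 3.20 and 3.07 on the mutant arrays (probe at chr9:106791278-106791337). The difference was 0.49 ± 0.12 (limma unadjusted p = 0.00952, adjusted p = 0.418), with 0.65 in replicate 1 and 0.33 in replicate 2. Of all members Manf had the smallest p, and its other passing probe gave 0.46.

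Sdf2l1, which works with the BiP cofactor ERdj3, gave 0.91 and 1.14 on the control and 1.56 and 1.46 on the mutant arrays (probe at chr16:17130426-17130485). The mutants were 1.4-fold higher (difference 0.49 ± 0.13, limma unadjusted p = 0.0141, adjusted p = 0.428). Creld2, an ER protein with disulfide isomerase activity, gave 4.10 and 4.49 on the control and 4.78 and 4.77 on the mutant arrays (probe at chr15:88656997-88657056). Control replicate 1 was the lowest of its 4 arrays, and without it the difference of 0.48 ± 0.15 (limma unadjusted p = 0.025, adjusted p = 0.473) became 0.29. Creld2 differed by 0.68 in replicate 1 and 0.28 in replicate 2 and Sdf2l1 by 0.65 in replicate 1 and 0.32 in replicate 2.

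The J-domain cofactors, which bring substrates to BiP and spur its ATPase, did not reach the unadjusted threshold. Dnajb11, which encodes ERdj3, gave 3.58 and 3.56 on the control and 3.89 and 3.70 on the mutant arrays, a difference of 0.23 ± 0.11 with no overlap. Dnajc3, encoding P58IPK, gave 0.15 and -0.01 on the control and 0.32 and 0.09 on the mutant arrays, and control replicate 1 lay above mutant replicate 2. Dnajb9, encoding ERdj4, a well-known target of spliced XBP1, went the other way at 1.26 and 1.39 (controls) and 1.03 and 1.38 (mutants). Its difference was -0.12 ± 0.16, and the sign changed without Junb fl/fl Cd4-Cre replicate 1 (0.06). Of the 9 genes of BiP, Grp94 and their cofactors, 8 were higher and 4 had an unadjusted p under 0.05. Over all genes 53.3% were higher, and 5.31% were higher at that threshold. The median of the 9 was 0.27 (0.16 after quantile normalization and 0.13 after cyclic loess).

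Protein disulfide isomerases make and shuffle disulfide bonds, and calnexin and calreticulin hold glycoproteins by their trimmed sugars. All 6 members of this group were higher with no overlap between genotypes, as were 25.7% of all genes. Their median was 0.23 (0.12 after quantile normalization, where Pdia6 was at -0.02). Pdia4, also called ERp72, gave 1.01 and 1.07 on the control and 1.47 and 1.43 on the mutant arrays (probe at chr6:47746516-47746575). It was 1.33-fold higher (difference 0.41 ± 0.11, limma unadjusted p = 0.0132, adjusted p = 0.428), and its differences of 0.47 in replicate 1 and 0.36 in replicate 2 were more even than those of most members. Without 1 array it ranged from 0.38 to 0.44, so its size rested on no single array.

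Pdia3, which encodes ERp57, the partner of calnexin and calreticulin, gave 3.49 and 3.34 on the control and 3.69 and 3.55 on the mutant arrays. Pdia6, which attenuates the IRE1 and PERK signals, gave 5.47 and 5.46 on the control and 5.84 and 5.56 on the mutant arrays. P4hb, the classical PDI and a subunit of prolyl 4-hydroxylase, gave 3.70 and 3.79 on the control and 4.06 and 3.82 on the mutant arrays. Their differences were 0.21 ± 0.12, 0.24 ± 0.13 and 0.19 ± 0.13, and mutant replicate 2 lay close to the controls for P4hb and Pdia6. Calr, encoding calreticulin, gave 4.17 and 4.13 on the control and 4.46 and 4.28 on the mutant arrays, a difference of 0.22 ± 0.11. Canx, encoding calnexin, gave 4.77 and 4.58 on the control and 5.03 and 4.83 on the mutant arrays, a difference of 0.25 ± 0.13 of nearly the same size in both replicates (0.26 in replicate 1 and 0.25 in replicate 2). None of these 5 genes passed the unadjusted threshold.

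**Figure D2:**
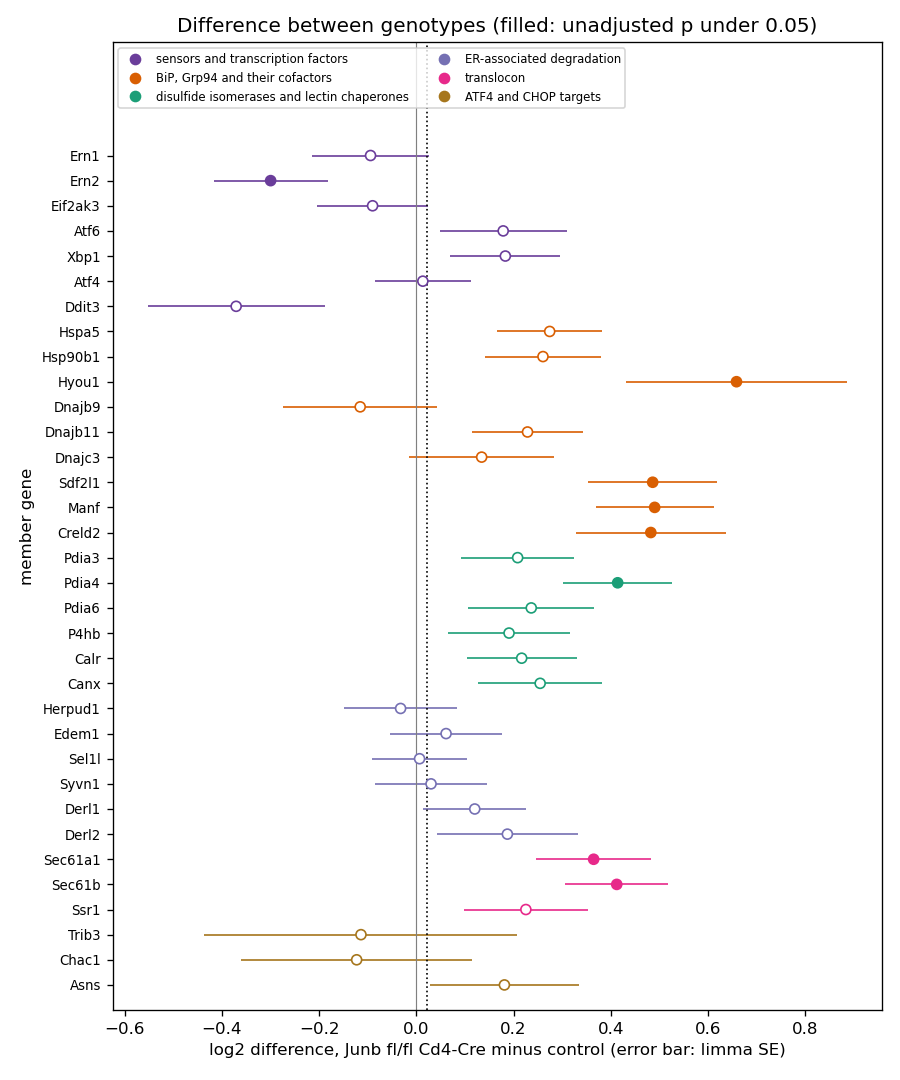
Log2 difference, mutant minus control (x axis), for each member (y axis), with the limma standard error as the bar and n = 2 and 2 arrays; filled points have an unadjusted p under 0.05 and the dotted line marks the median of all genes at 0.02. The filled points are Ern2 to the left and Hyou1, Sdf2l1, Manf, Creld2, Pdia4, Sec61a1 and Sec61b to the right, while the degradation genes lie near 0; after quantile normalization Xbp1, Atf4, Pdia6, Sel1l and Syvn1 move to the left of 0.

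The translocon lets new proteins into the ER. Sec61b, its beta subunit, gave 5.64 and 5.72 on the control and 6.15 and 6.03 on the mutant arrays (probe at chr4:47495923-47495982). The mutants were 1.33-fold higher (difference 0.41 ± 0.11, limma unadjusted p = 0.011, adjusted p = 0.418), and another probe gave 0.42. Sec61a1, the channel itself, gave 4.60 and 4.67 on the control and 5.11 and 4.89 on the mutant arrays (probe at chr6:88453605-88453664) and was 1.29-fold higher (difference 0.36 ± 0.12, limma unadjusted p = 0.027, adjusted p = 0.477). Its 3 passing probes ranged from 0.14 to 0.36. After quantile normalization neither reached the threshold, at 0.16 for Sec61b and 0.21 for Sec61a1. Ssr1, a subunit of the translocon-associated protein complex, gave 3.60 and 3.49 on the control and 3.89 and 3.65 on the mutant arrays. Its difference of 0.23 ± 0.13 did not pass, although the groups did not overlap.

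Proteins that fail to fold are drawn back into the cytosol and degraded by the HRD1 complex. The 6 members of this pathway had a median difference of 0.05 (-0.02 after quantile normalization and -0.04 after cyclic loess), close to that of all genes, and none had an unadjusted p under 0.05. Syvn1, the HRD1 ubiquitin ligase, gave 4.32 and 4.51 on the control and 4.47 and 4.42 on the mutant arrays, and its partner Sel1l gave 3.62 and 3.62 on the control and 3.63 and 3.63 on the mutant arrays. Sel1l varied least of all members over the 4 arrays, over a range of 0.011, and its passing probes ranged from -0.13 to 0.22. Herpud1, which is induced early in ER stress, gave 3.36 and 3.57 on the control and 3.44 and 3.42 on the mutant arrays, so that control replicate 2 was the highest.

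Edem1, a lectin that hands misfolded glycoproteins to this complex, gave 1.47 and 1.36 on the control and 1.43 and 1.52 on the mutant arrays. Derl1 and Derl2 encode membrane proteins of the retrotranslocation channel. Derl1 gave 2.12 and 2.18 on the control and 2.30 and 2.24 on the mutant arrays and Derl2 gave 3.59 and 3.93 on the control and 3.96 and 3.93 on the mutant arrays. Their differences of 0.12 ± 0.11 and 0.19 ± 0.14 were mostly in replicate 1 (0.38 in replicate 1 and -0.00 in replicate 2 for Derl2).

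Among the sensors, Ern2 stood apart. It gave 4.98 and 4.77 on the control and 4.54 and 4.61 on the mutant arrays (probe at chr7:129313475-129313534), so that both mutants lay below both controls. The mutants were 1.23-fold lower (difference -0.30 ± 0.12, limma unadjusted p = 0.0494, adjusted p = 0.536), with -0.44 in replicate 1 and -0.16 in replicate 2 and -0.43 by its other probe. It was -0.46 after quantile normalization and -0.22 after median centring, where it did not pass the unadjusted threshold, as it did not without control replicate 1 (-0.20) or without either mutant array. Ern2 also missed that threshold without the filter on dim probes and without the intensity trend. Ern1, the widely expressed IRE1-alpha, gave 1.16 and 1.14 on the control and 0.98 and 1.13 on the mutant arrays. Eif2ak3, encoding PERK, gave 0.82 and 0.88 on the control and 0.75 and 0.77 on the mutant arrays. Other probes of these genes were higher in the mutants by up to 0.23 for Ern1 and 0.24 for Eif2ak3, so no direction is given for either. Atf6 gave 0.31 and 0.46 on the control and 0.62 and 0.51 on the mutant arrays, with a difference of 0.18 ± 0.13 that did not pass.

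In the main fit the transcription factors downstream of the sensors did not pass the unadjusted threshold either. Atf4 passed it after quantile normalization, and Ddit3 passed it with the replicate number as a block (limma unadjusted p = 0.0446). Xbp1 gave 5.27 and 5.45 on the control and 5.58 and 5.51 on the mutant arrays, a difference of 0.18 ± 0.11 with no overlap, which turned to -0.06 after quantile normalization. Its 3 passing probes gave 0.18 to 0.25, and they were not used to tell spliced from unspliced mRNA. Atf4 gave 5.90 and 5.97 on the control and 5.95 and 5.94 on the mutant arrays, with the groups overlapping and a difference of 0.01 ± 0.10 that turned to -0.24 after quantile normalization (limma unadjusted p = 0.0417) and -0.14 after cyclic loess. Ddit3, which encodes the pro-apoptotic factor CHOP, gave -0.93 and -0.73 on the control and -1.35 and -1.06 on the mutant arrays. Both mutants lay below both controls, and the difference of -0.37 ± 0.18 did not pass (limma unadjusted p = 0.0964), with a difference of -0.29 by its other probe.

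The targets of ATF4 and CHOP overlapped between genotypes. Trib3, a pseudokinase that feeds back on ATF4, gave -1.39 and -0.68 on the control and -1.43 and -0.86 on the mutant arrays. Chac1, which breaks down glutathione, gave -0.10 and 0.33 on the control and -0.25 and 0.24 on the mutant arrays. For both genes the replicate 2 arrays were higher than the replicate 1 arrays in each genotype, and the differences of -0.11 ± 0.32 and -0.12 ± 0.24 were smaller than that gap. Asns, asparagine synthetase, gave 2.88 and 3.20 on the control and 3.32 and 3.12 on the mutant arrays and differed by 0.44 in replicate 1 and -0.08 in replicate 2.

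**Figure D3:**
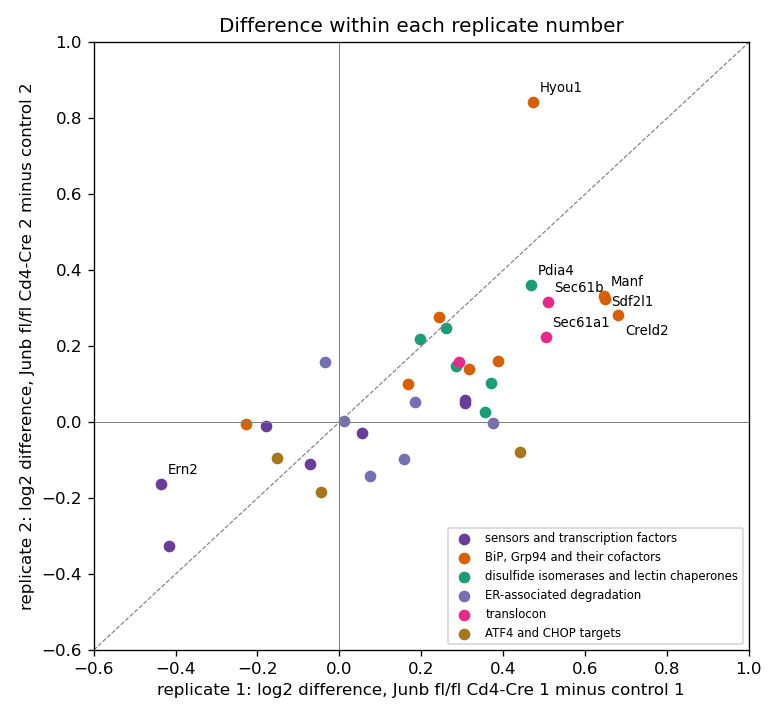
Difference of each member within replicate 1, both female (x axis), against that within replicate 2, both male (y axis), as log2 mutant minus control, coloured by role; the dashed line marks equal differences. Most points lie right of 0 and below the dashed line, with Hyou1 far above it at 0.47 and 0.84, and Ern2 and Ddit3 at the lower left.

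Further genes of the pathway were taken from 8 lists, of which 99 genes were tested. Of these 13 were higher and none was lower at an unadjusted p under 0.05, where 5.31% of all genes were higher and 3.98% lower. In all 79 were higher (79.8%, against 53.3% of all genes), and their median was 0.13 (0.07 after quantile normalization and 0.04 after cyclic loess). The same shares of all genes apply to the counts of each list below. After quantile normalization the counts were 6 higher and 2 lower (4.33% of all genes were higher), and after cyclic loess 8 and 2 (4.07% of all genes were higher). Without control replicate 1 they were 6 and 0, and without Junb fl/fl Cd4-Cre replicate 1, 4 and 0. Glycosylation and translocation genes stood first among the lists.

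In the mutants all 11 genes of N-glycosylation and glycan trimming were higher, 5 of them at an unadjusted p under 0.05, with a median of 0.26 (0.12 after quantile normalization). Subunits of oligosaccharyltransferase, the enzyme complex that attaches glycans to new proteins, led the list. Ddost differed by 0.36 ± 0.12, Rpn1 by 0.36 ± 0.12 and Ostc by 0.35 ± 0.12. After quantile normalization they differed by 0.29, 0.11 and 0.30, and none of the 3 reached the unadjusted threshold there or after cyclic loess. Of 15 further genes of the translocon, targeting and signal peptidase, 14 were higher and 3 passed the unadjusted threshold, with a median of 0.20. Sec61g, the gamma subunit of the channel, differed by 0.49 ± 0.11, Ssr2, another subunit of the translocon-associated complex, by 0.44 ± 0.11 and Tram1, a membrane protein beside the channel, by 0.43 ± 0.11. Sec61g was at 0.29 and missed the unadjusted threshold after quantile normalization. None of these 6 genes had an adjusted p under 0.05.

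Among 25 further genes of the integrated stress response, 15 were higher and 10 lower, with a median of 0.08 (-0.03 without control replicate 1). At an unadjusted p under 0.05, 5 were higher and none was lower. Both mutants lay above both controls for 9 of the 25 (25.7% of all genes) and below both for 4 (17.6%). The 4 were Atf3 at -0.41 ± 0.16, Nupr1 at -0.43 ± 0.20, Eif2ak4 at -0.27 ± 0.13 and Gdf15 at -0.26 ± 0.15. Phgdh, the first enzyme of serine synthesis, gave 0.98 and 1.06 on the control and 2.12 and 1.89 on the mutant arrays, a difference of 0.99 ± 0.13 (limma unadjusted p = 0.00058, adjusted p = 0.417). Shmt2 and Psat1, of the same serine and glycine route, differed by 0.61 ± 0.17 and 0.62 ± 0.18. Psat1 and Ddit4 lie outside the naming rule and are named to complete the 5. Wars, the tryptophanyl-tRNA synthetase, which interferon gamma also induces, differed by 0.67 ± 0.13, and by 0.43 after quantile normalization, where it missed the unadjusted threshold. Ddit4, an inhibitor of mTOR signalling, differed by 0.77 ± 0.30.

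In the remaining lists no gene had an unadjusted p under 0.05. Further degradation genes had a median of 0.10 over 15 genes, further oxidative folding genes 0.12 over 10, ER to Golgi transport genes 0.13 over 10, further BiP cofactors 0.07 over 5 and further ER membrane transcription factors with their proteases 0.04 over 8. After cyclic loess the last 2 lists had medians of -0.006 and -0.022. The largest differences in them were those of Derl3 at 0.63 ± 0.28 and Edem2 at 0.33 ± 0.24, Pdia5 at 0.32 ± 0.14 and Prdx4 at 0.31 ± 0.18, Kdelr1 at 0.23 ± 0.11 and Sec23b at 0.22 ± 0.14, Mzb1 at 0.20 ± 0.32 and Sdf2 at 0.08 ± 0.15, and Creb3l3 at -0.41 ± 0.88 and Atf6b at 0.32 ± 0.19. Creb3l3 and Mzb1 differed far more between replicate numbers than between genotypes.

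**Figure D4:**
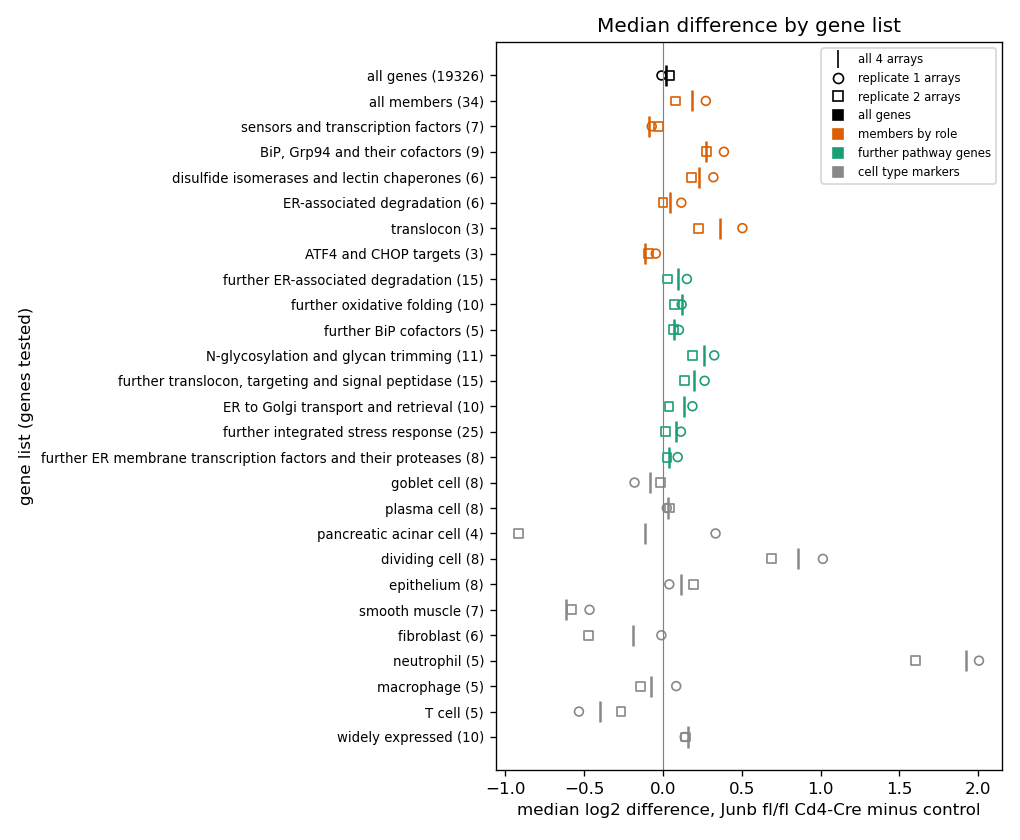
Median log2 difference, mutant minus control (x axis), of all genes, the members by role, the further pathway lists and the marker lists (y axis, with the number of genes tested), as a bar for all 4 arrays, a circle for replicate 1 and a square for replicate 2. The members of the translocon, of BiP with its cofactors and of the isomerases and lectin chaperones lie at 0.50, 0.39 and 0.32 in replicate 1, above their replicate 2 values of 0.22, 0.28 and 0.18, and widely expressed genes lie at 0.16; quantile normalization turns the median of the degradation members to -0.02.

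Markers of several cell types differed between the genotypes. Whole colon RNA cannot tell fewer cells of a type from less RNA per cell. All 8 epithelial and all 7 smooth muscle markers were well above background, in keeping with the labelled tissue. Smooth muscle markers were lower in 7 of 7 cases (median -0.61), with Des at -0.66 ± 0.12, Myh11 at -0.61 ± 0.12 and Synpo2 at -0.75 ± 0.16. Their summed log2 level was 8.11 and 8.22 on the control arrays, 7.77 and 7.69 on the mutant arrays. Dividing cell markers were higher in 8 of 8 cases (median 0.85), with Ube2c at 0.92 ± 0.17, Birc5 at 0.92 ± 0.19 and Plk1 at 0.92 ± 0.20, and a summed level of 4.83 and 4.62 against 5.83 and 5.31. The part of either cell type in the members' differences was not tested.

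Epithelial markers had a median of 0.11, with 6 of 8 higher, Cdx2, the intestinal transcription factor, at 0.43 ± 0.13, and a summed level of 9.57 and 9.54 against 9.60 and 9.70. After quantile normalization their median was -0.05 and after cyclic loess -0.06. Markers of goblet cells, in which Ern2 is expressed, were lower in 7 of 8 cases with a median of -0.08 (-0.22 after quantile normalization), and a summed level of 10.67 and 10.79 against 10.41 and 10.69. Fcgbp, a mucus protein of goblet cells, was the only one at an unadjusted p under 0.05, at 7.62 and 7.75 on the control and 6.97 and 7.16 on the mutant arrays and a difference of -0.62 ± 0.12. Its difference had the direction of that of Ern2, while the mucin gene Muc2 differed by -0.02 ± 0.12, and the part of goblet cells in the difference of Ern2 was not tested.

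Plasma cell markers had a median of 0.03 with 7 of 8 higher and none at an unadjusted p under 0.05. Their summed level was 5.67 and 6.14 for controls against 5.72 and 6.20 for mutants. Derl3 and Mzb1, named above as ER genes, are also on this list, at 0.63 ± 0.28 and 0.20 ± 0.32. For Derl3 both mutants lay above both controls, and for Mzb1 the groups overlapped. The antibody joining chain gene Jchain differed by 0.03 ± 0.25. Pancreatic acinar cells, which are rich in ER, may be carried along with gut samples. Only 4 of 12 of their markers passed the filter on dim probes, with a summed level of 2.02 and 3.10 against 1.13 and 1.96 and Clps at -1.12 ± 0.47. Neutrophil markers had a median of 1.92 over 5 of 7 genes, which was 1.27 to 3.20 without 1 array and 1.18 with normexp background correction. Their summed level was 1.35 and 2.99 against 3.41 and 5.17. Ltf differed by 1.48 ± 0.26, S100a8 by 2.24 ± 0.78 and S100a9 by 2.24 ± 0.88, while Camp differed by -0.22 ± 0.35. With the replicate number as a block in limma, Ltf, S100a8, S100a9 and the acinar Clps passed the adjusted threshold, with adjusted p of 0.046, 0.0408, 0.0236 and 0.0474. T cell markers had a median of -0.40 over 5 genes, with Cd3d at -0.48 ± 0.15. Cd8a was not well above background on either mutant array, so it passed the filter through the controls alone. In the main signal it was at least 2.71-fold lower in the mutants, a bound set against the dimmest signal above background on each mutant array. With normexp background correction the log2 difference of Cd8a was -0.43, so the bound does not hold in that setting. The other 4 T cell markers had a median of -0.36. Fibroblast markers had a median of -0.19 over 6 genes (Lum -0.55 ± 0.16) and macrophage markers -0.08 over 5 (Itgam 0.16 ± 0.14, Adgre1 -0.16 ± 0.33). Without 1 array in turn these medians ran from -0.57 to 0.15 for fibroblast, -0.32 to 0.17 for macrophage, -0.26 to 0.02 for goblet, -0.10 to 0.23 for plasma and -0.82 to 0.29 for acinar markers, so no direction is given for these lists. The part of these cells in the members' differences was not tested.

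Genes expressed in most cells were also higher. Of 10 such genes 9 were higher in the mutants with a median of 0.16, near the 0.19 of the ER genes, and 2 had an unadjusted p under 0.05, Rplp0, a ribosomal protein gene, at 0.35 ± 0.12 and Ppia, cyclophilin A, at 0.27 ± 0.10. After cyclic loess their median was 0.04 and that of the members 0.09, and after quantile normalization they were 0.06 and 0.10. Under cyclic loess Hyou1, Sdf2l1, Manf, Creld2 and Pdia4 kept differences of 0.69, 0.45, 0.41, 0.36 and 0.37, while Hspa5 and Hsp90b1 were at 0.13 and 0.12.

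**Figure D5:**
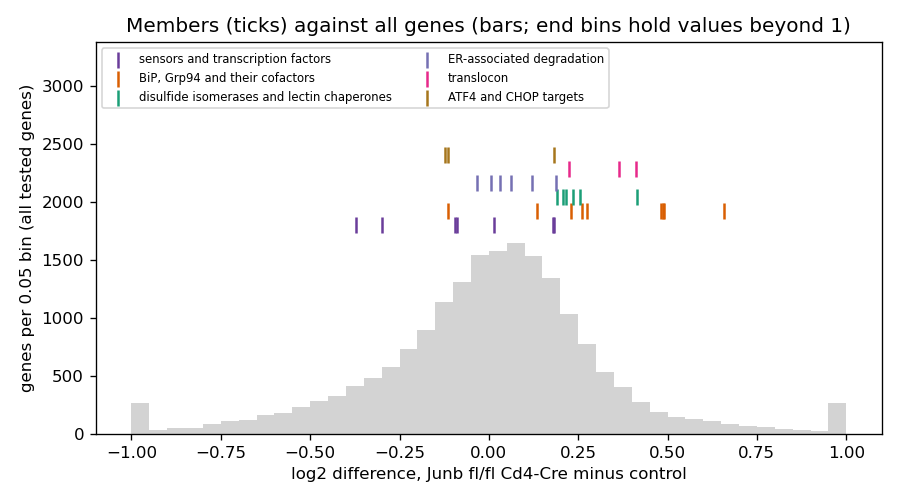
Number of genes per 0.05 of log2 difference, mutant minus control, for all 19326 genes tested (grey bars, with end bars holding values beyond 1), and the 34 members as ticks in 1 row per role. The chaperone, isomerase and translocon ticks lie mostly right of the peak, and the sensors and transcription factors on both sides of it; Xbp1, Atf4, Pdia6, Sel1l and Syvn1 lie left of 0 after quantile normalization.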

How the data were processed

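Total RNA of whole colon (2 control and 2 mutant samples) was labelled with Cy3 and hybridised to 1-colour Agilent arrays with 59305 spots that are not controls. Agilent Feature Extraction 11.5.1.1, named in the submitters' processing notes, made the deposited intensity values: the processed signal is background-subtracted and detrended within the array, with no normalization between arrays, and the mean and median background intensity stand beside it. The deposited flags, per the file headers, are other values of 0 or 1. Between 27940 and 29091 probes were well above background, no spot was saturated, and the number of arrays limits the precision.

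Spots marked as outliers were left out (11 probes lost all), spots of a probe averaged on the log2 scale after subtracting each array's 75th percentile, and probes well above background on at least 2 arrays kept. The brightest probe represented its gene, and 22 members had several such probes, of which those of Ern1, Eif2ak3 and Sel1l differed in sign. Differences came from limma 3.58.1 in R 4.3.3 (lmFit, eBayes with trend, two-sided, no block) with Benjamini-Hochberg adjustment over all genes. The fit was tested on simulated data. The p-values measure the spread between arrays, since nothing says how the samples of a group were drawn. Members and lists were chosen with earlier results of these data known. All 34 members were named. From each other list up to 3 genes by smallest unadjusted p under 0.05 were named, otherwise the 2 largest differences (1 gene this rule names is not reported here), and other names are given as comparison or were chosen after their values were seen (Muc2, Jchain, Camp, Psat1, Ddit4). Promoters came from RefSeq (GRCm38.p6).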

Additional observations from a re-analysis of the deposited data

Results flagged for a closer look

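In 6 members the mutant lay on opposite sides of the control in the female (replicate 1) and the male (replicate 2) samples. With 1 sample of each genotype and sex, the difference between the sexes was not tested. Sex cannot be told apart from anything else that differs between the replicate numbers. Asns differed by 0.44 between the female and -0.079 between the male samples, and Derl2 by 0.38 and -0.0014. Syvn1 differed by 0.16 and -0.098, Herpud1 by 0.076 and -0.14, Atf4 by 0.056 and -0.029, and Edem1, the other way round, by -0.036 and 0.16. Among the named macrophage markers Adgre1 differed by 0.10 and -0.42 and Itgam by -0.065 and 0.38.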

How the results depend on the processing

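Of the 34 members none reached an adjusted p of 0.05 under any of the 14 alternatives, and their median difference stayed above 0, from 0.092 (cyclic loess) to 0.27 (median centring), with 0.095 after quantile normalization and 0.12 to 0.26 without 1 array. The 7 higher and 1 lower members at an unadjusted p under 0.05 became 3 in all with the second brightest probe, where 22 members had one, 5 without the intensity trend, and 0 to 7 without 1 array. Over all genes the 1796 became 3607 without the filter on dim probes, 456 with the second brightest probe and 857 to 2197 without 1 array. Further pathway genes, 13 at first, became 8 after quantile normalization, 4 with the second brightest probe, 8 without the intensity trend and 4 to 17 without 1 array.

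The replicate numbers are shared by the genotypes, and deviations of same-numbered arrays correlated with r = 0.239, but with 2 pairs this does not show a paired design. With the replicate block 10 members were higher and 2 lower at an unadjusted p under 0.05 and none at an adjusted p of 0.05 (smallest 0.141), while all genes gave 3383, of which 46 passed the adjusted threshold, and further pathway genes 25.

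Signs of small differences turned in these settings. Normexp correction gave Atf4 -0.011. Quantile normalization gave Xbp1 -0.061, Atf4 -0.24, Pdia6 -0.015, Sel1l -0.066, Syvn1 -0.071 and Sdf2 -0.029, and cyclic loess, chosen after seeing the data, gave Atf4 -0.14, Sel1l -0.092, Syvn1 -0.088 and Sdf2 -0.043. Median centring gave Herpud1 0.050. The mean over probes gave Ern1 0.049 and Eif2ak3 0.073, and the second brightest probe gave Ern1 0.011, Eif2ak3 0.24 and Sel1l -0.13. Without 1 array in turn Atf4 ranged from -0.022 to 0.048, Syvn1 from -0.068 to 0.13, Mzb1 from -0.14 to 0.55, Sdf2 from -0.059 to 0.21, Herpud1 from -0.13 to 0.069, Trib3 from -0.47 to 0.24, Chac1 from -0.37 to 0.12, Adgre1 from -0.61 to 0.29, Creb3l3 from -1.45 to 0.62 and Dnajb9 from -0.29 to 0.059. The cause of these changes was not tested. No slide block was fitted, as all arrays lay on 1 slide.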
